A study of Mus musculus with 23 samples.

Results

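The genes that encode the receptors for glutamate and their auxiliary proteins were followed in mouse hippocampus across 4 genotypes. The set was made by name: 34 genes of the 37173 in the count table, comprising 4 AMPA, 5 kainate and 7 NMDA receptor subunits, 1 delta receptor, 6 metabotropic receptors, 5 TARP, 2 cornichon and 3 Shisa auxiliary subunits and 1 scaffold. Of these, 33 passed the filter on low counts, as did 19423 genes in all, and Grin3b did not. Messenger RNA selected by its poly-A tail was sequenced from both hippocampi of mice of about 5 months, with 1 library for each of 23 animals. The P16 KO group (libraries 7 to 12, n = 6) was homozygous for the P16 knockout allele. The APP NLGF group (libraries 13 to 17, n = 5) was homozygous for the APP NLGF allele. The APP NLGF P16 KO group (libraries 18 to 23, n = 6) was homozygous for both, and WT mice (libraries 1 to 6, n = 6) carried neither. The labels used here do not describe the deleted stretch of the P16 allele, the strain, the sex or the litters.

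Glutamate is the main excitatory transmitter of the hippocampus. AMPA receptors carry the fast synaptic current, NMDA receptors admit calcium when a synapse is active and trigger plasticity, kainate receptors tune release and excitability, and metabotropic receptors act through G proteins. AMPA receptors travel with auxiliary subunits (TARPs, cornichons and Shisa proteins) that set their trafficking and gating. The P16 allele concerns Cdkn2a, whose product p16 holds cells out of the cycle and accumulates in senescent cells. The APP NLGF allele is a knock-in of familial Alzheimer mutations into the App gene, so that amyloid forms under the endogenous promoter.

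Total counts per library ran from 45449180 to 61178839 in P16 KO, 40693561 to 56973131 in APP NLGF, 48577677 to 59486545 in APP NLGF P16 KO and 54595296 to 58715671 in WT. Levels are given as CPM, a gene's counts relative to the library total after TMM scaling. The libraries carried no molecular identifiers, so what is said of depth covers counting error only. Cdkn2a had very few reads everywhere, with 0 to 2 per library in P16 KO (4 in all), 2 to 9 in APP NLGF (25 in all), 0 to 8 in APP NLGF P16 KO (24 in all) and 0 to 6 in WT (17 in all). The reads therefore do not check the labels, and P16 KO names the groups as labelled. Markers of excitatory neurons, and of dentate, CA1, CA2 and CA3 cells, were present in every library. The lowest CPM of any of the cell type markers examined was 0.337, for the neocortical gene Rspo1. The choroid plexus markers, from tissue that adjoins the hippocampus, varied most, with sums of 580.9 to 5639 CPM in P16 KO, 1428 to 3727 in APP NLGF, 265.9 to 2504 in APP NLGF P16 KO and 114.4 to 3147 in WT. Tissue was sequenced in bulk, so fewer cells of a type and less RNA per cell cannot be told apart. By a distance rule of the kind in the series' design text, rebuilt on 5 principal components, library 21 of APP NLGF P16 KO stood apart from the rest (squared distance 12.4 against a limit of 11.1).

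Cnih3 was the only member called higher in P16 KO averaged over both App backgrounds (edgeR adjusted p under 0.05), and Cnih2 is its closest relative. Promoter sequences are shown for these cornichon genes and for Gria2, an AMPA subunit with an estimate on the opposite side of 0. Each is the 250 bases before the annotated start, from RefSeq on build GRCm38.p6, written 5′ to 3′ on the gene's own strand. Capitals mark the GC box GGGCGG on either strand. The windows are chr1:181352378-181352627 on the plus strand for Cnih3, chr19:5098522-5098771 on the minus strand for Cnih2 and chr3:80802836-80803085 on the minus strand for Gria2.
Cnih3: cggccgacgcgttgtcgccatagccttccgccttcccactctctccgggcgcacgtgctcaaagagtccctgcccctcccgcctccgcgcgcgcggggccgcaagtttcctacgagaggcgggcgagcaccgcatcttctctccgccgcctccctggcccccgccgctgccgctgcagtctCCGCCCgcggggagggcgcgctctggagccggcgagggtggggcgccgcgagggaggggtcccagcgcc
Cnih2: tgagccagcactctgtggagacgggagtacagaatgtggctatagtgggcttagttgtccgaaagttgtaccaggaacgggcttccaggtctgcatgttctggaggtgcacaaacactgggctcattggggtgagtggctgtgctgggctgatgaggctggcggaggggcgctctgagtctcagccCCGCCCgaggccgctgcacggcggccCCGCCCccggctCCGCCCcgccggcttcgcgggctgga
Gria2: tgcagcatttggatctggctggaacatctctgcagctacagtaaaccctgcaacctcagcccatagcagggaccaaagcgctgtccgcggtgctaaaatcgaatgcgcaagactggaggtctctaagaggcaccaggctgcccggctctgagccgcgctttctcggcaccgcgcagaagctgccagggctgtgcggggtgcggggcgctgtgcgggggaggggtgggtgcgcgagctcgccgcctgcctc
Cnih3 held 1 GC box, Cnih2 held 3 and Gria2 held 0. The bases were 76.0% G or C in Cnih3, 65.6% in Cnih2 and 64.8% in Gria2. The RefSeq table held 22 of the 34 members. A GC box was found in 13 of these 22 genes, while 32.7% of all 32851 windows of the table held one. The NRF-1 motif lay in 3.74% of all windows and in 1 member, Dlg4. The cAMP response element TGACGTCA lay in 1.55% of all windows and in 0 of the 22. Members were counted per gene, with a match in any window of the gene, and the table per window. The 2 measures are unlike and were not compared. Both strands were searched, and these matches of letters describe the windows only. Grin2b, Cacng4, Gria1, Shisa6, Grin3a, Shisa9, Gria3, Grik1, Grm4, Grin2a, Grm5 and Grid1 had no entry in the table.

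The members spanned more than 3 orders of magnitude in level. Exon length here covers every annotated exon of a gene, over all its transcripts, and the order below depends on it. Per kb of exon, Cnih2, which speeds AMPA receptors to the surface and slows their closing, was highest at 290.6 CPM per kb over the 23 libraries. Gria1, the AMPA subunit whose insertion accompanies potentiation, followed at 175 CPM per kb. Cacng7 (65.4 CPM per kb), Gria2 (57.8), the scaffold gene Dlg4 (52.2) and the obligatory NMDA subunit gene Grin1 (43.5) came next. At the other end stood the NMDA subunit gene Grin2d (1.65 CPM per kb), the metabotropic receptor gene Grm8 (0.855) and Grin3b (0.043). Grin3b had 2 to 20 reads in a library, and no comparison was made for it. Neighbours in this order overlapped in many places, as the plot of levels shows.

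Levels differed within classes too. Below Gria1 and Gria2, the AMPA subunit genes Gria3 and Gria4 stood at 23.4 and 13.8 CPM per kb. The kainate class ran down from the high-affinity subunit gene Grik5 (33.1 CPM per kb) through Grik4 (10.8), Grik2 (8.41) and Grik3 (4.69) to Grik1 (1.97). Among NMDA subunits, Grin1 was followed by Grin2b (20.8 CPM per kb), Grin2a (16.4), Grin2c (8.66) and Grin3a (4.56).

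The delta receptor gene Grid1 had 11.2 CPM per kb. Of the metabotropic receptors, which act on phospholipase C (Grm5) or lower cyclic AMP (the others here), Grm5 was highest at 30.4 CPM per kb, with Grm3 at 15.3, Grm2 at 11.1, Grm7 at 10.5 and Grm4 at 2.01. The TARP genes below Cacng7 were Cacng8 (34.4 CPM per kb), Cacng3 (19.6), Cacng4 (5.41) and Cacng2 (2.02). Cnih3 had 27.6 CPM per kb, and the Shisa genes had 25.9 (Shisa7), 17.7 (Shisa6) and 12.3 (Shisa9).

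**Figure D1:**
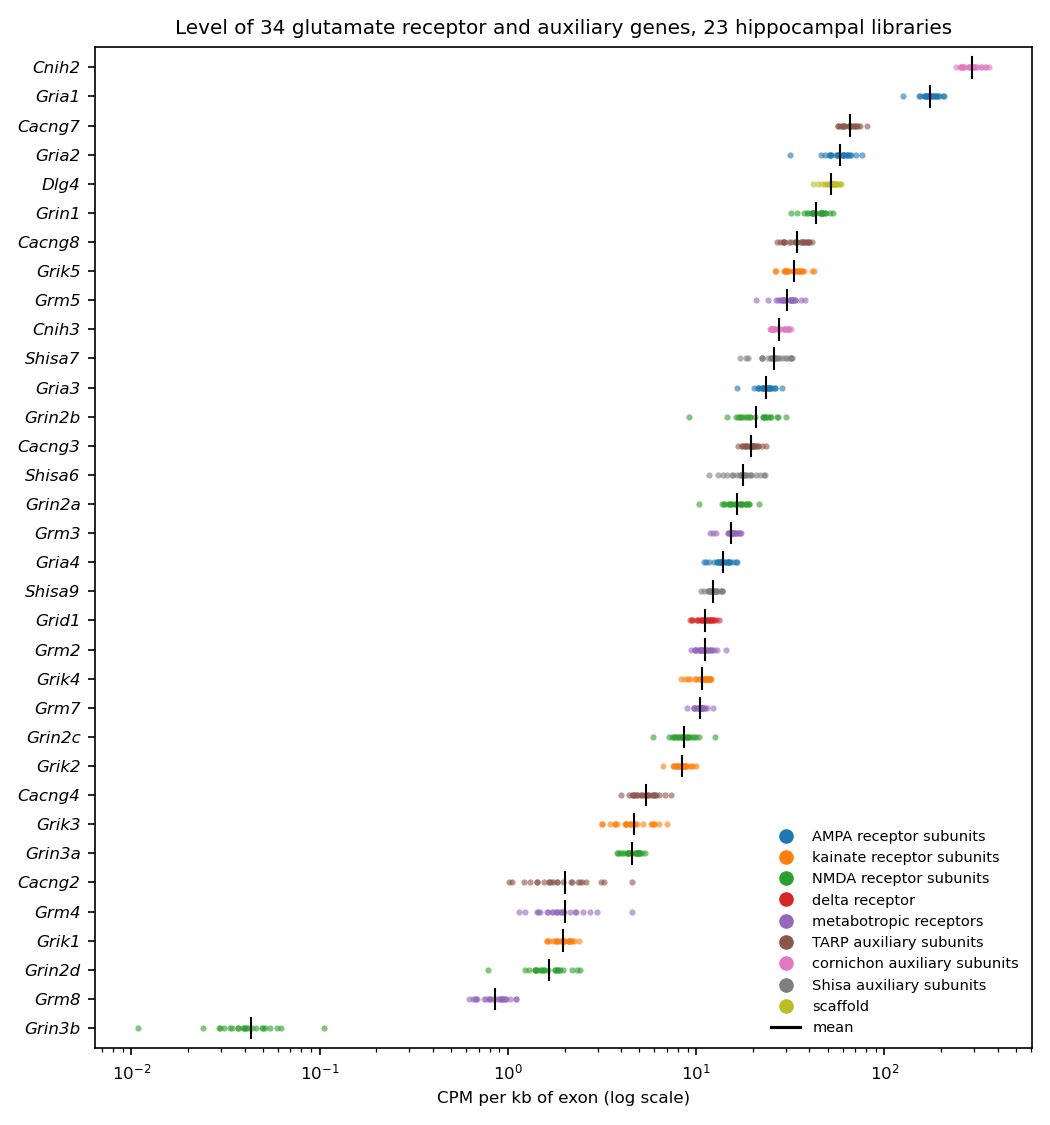
Level of each of the 34 genes in CPM per kb of exon (log scale), with 1 point per library, a bar at the mean of 23 libraries and colour by class. Cnih2 (290.6) and Gria1 (175) lie above the rest, and Grin3b (0.043) lies below all others.

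Within the AMPA class, Gria1 had most of the counts per kb in every genotype. Its share of the 4 Gria genes was 66.2% ± 1.41 in P16 KO, 64.4% ± 1.47 in APP NLGF, 64.9% ± 1.76 in APP NLGF P16 KO and 63.8% ± 0.925 in WT (SD, n = 6, 5, 6 and 6). Gria2, which makes the channel impermeable to calcium, supplied 20.7% ± 1.19 in P16 KO, 21.8% ± 1.35 in APP NLGF, 20.2% ± 1.94 in APP NLGF P16 KO and 22.5% ± 0.762 in WT. These shares overlapped between genotypes and were not tested. They rest on the exon lengths used, 6043 bases for Gria1 and 15548 for Gria2. Before division by length, the means over the 23 libraries were 1058 CPM for Gria1 and 899 CPM for Gria2. The Grin2 values below rest likewise on 17933 bases for Grin2a and 24842 for Grin2b. Which exons the transcripts carried was not examined. Among the Grin2 genes, which set the kinetics of the NMDA receptor, the ratio of Grin2b to Grin2a per kb was 1.19 ± 0.117 in P16 KO, 1.32 ± 0.195 in APP NLGF, 1.15 ± 0.209 in APP NLGF P16 KO and 1.37 ± 0.0626 in WT. Its values spanned 1.04 to 1.33 in P16 KO, 1.05 to 1.56 in APP NLGF, 0.884 to 1.47 in APP NLGF P16 KO and 1.26 to 1.44 in WT, so all 4 ranges overlapped. Grin2c made up 18.9% ± 2.57, 18.7% ± 4.52 and 20.7% ± 4.62 of the Grin2 sum per kb in P16 KO, APP NLGF and APP NLGF P16 KO, against 15.9% ± 1.16 in WT.

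The first comparison, P16 KO against WT, asked what the P16 allele changes where App is wild type. No member passed the threshold of 0.05 on the adjusted p (0 of 33, against 0.309% of all genes tested, 0.263% higher and 0.0463% lower), and DESeq2 called 0 as well. An unadjusted p under 0.05 was found for 7 members, against 15.8% of all genes. The estimate was below 0 for 28 of 33 members, with a median log2 change of -0.115, beside -0.0051 over all genes. In no member did the groups separate completely, which 1.81% of all genes did. The smallest p belonged to Cnih2. It had 368, 418 and 474 CPM as lowest, median and highest value in P16 KO, and 330.5, 355 and 385 CPM in WT, so the groups overlapped, although all 6 P16 KO libraries exceeded the WT mean. The log2 difference of Cnih2 was 0.23 ± 0.08 (SE), with adjusted p = 0.145 in edgeR. Grik1, a low-affinity kainate subunit gene, was second. It had 10.9, 12.2 and 13.4 CPM in P16 KO and 12.3, 14.3 and 16.0 CPM in WT, with overlap at the edge, a log2 difference of -0.22 ± 0.08 and an edgeR adjusted p of 0.176.

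For several abundant members the means of P16 KO and WT lay close together. Gria1 averaged 1082 ± 86.2 CPM in P16 KO and 1117 ± 122 CPM in WT (log2 -0.05 ± 0.08, edgeR adjusted p = 0.804). Grin1 averaged 419 ± 43.6 CPM in P16 KO and 429 ± 36.4 CPM in WT (log2 -0.03 ± 0.10, edgeR adjusted p = 0.896). Dlg4 averaged 689 ± 36.3 CPM in P16 KO and 712 ± 23.2 CPM in WT (log2 -0.05 ± 0.07, edgeR adjusted p = 0.757). The mean differences of these 3 genes were smaller than the SD of P16 KO libraries. For Dlg4 the difference was slightly larger than the SD of WT libraries. Gria2 (log2 -0.22 ± 0.11, edgeR adjusted p = 0.355), Grin2a (-0.115 ± 0.10, 0.583), Grin2b (-0.33 ± 0.16, 0.322), Grm5 (-0.18 ± 0.09, 0.334) and Cacng8 (-0.02 ± 0.10, 0.932) did not pass either. Grik3, a kainate subunit gene on chromosome 4, as is Cdkn2a, was at 37.1 ± 3.16 CPM in P16 KO and 48.3 ± 5.82 CPM in WT (log2 -0.38 ± 0.16, edgeR adjusted p = 0.251). Grik3 was the 1 member called when these 2 groups were fitted alone, a fit that called 1.95% of all genes. It starts at base 125490700 of chromosome 4 on GRCm38, and Cdkn2a at 89274471. Grin3a, also on chromosome 4, had a log2 difference of -0.14 ± 0.08 (edgeR adjusted p = 0.384). The part of position was not tested.

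The second comparison set APP NLGF P16 KO against APP NLGF, the same allele in mice that carry the knock-in. Again no member passed (0 of 33, against 0.0309% of all genes, 0.0257% higher and 0.00515% lower), while 10 members, 9 of them lower, had an unadjusted p under 0.05, against 23.5% of all genes. The estimate was below 0 for 24 of 33, with a median of -0.12 beside 0.012 over all genes. No member's groups separated, against 1.13% of all genes. Cnih3, a cornichon like Cnih2, had 70.9, 81.8 and 85.2 CPM as lowest, median and highest value in APP NLGF P16 KO. In the 5 APP NLGF libraries it had 70.6, 69.2, 71.3, 67.6 and 68.7 CPM. A single APP NLGF P16 KO library, number 21, fell within the APP NLGF range. Its log2 difference was 0.21 ± 0.06, with an edgeR adjusted p of 0.112.

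The NMDA subunit gene Grin2a had 185, 266 and 290.1 CPM in APP NLGF P16 KO, against 326, 295, 273, 334 and 342 CPM in APP NLGF. The upper APP NLGF P16 KO libraries overlapped the lower APP NLGF ones (log2 -0.30 ± 0.10, edgeR adjusted p = 0.119). Grin2b, its juvenile counterpart that persists in hippocampus, had 227, 415 and 564 CPM in APP NLGF P16 KO, against 561, 429, 587, 670.0 and 609.8 CPM in APP NLGF (log2 -0.48 ± 0.17, edgeR adjusted p = 0.127). Library 21 held the lowest value of both genes. The estimates of the other core members were -0.16 ± 0.08 for Gria1 (edgeR adjusted p = 0.211), -0.27 ± 0.12 for Gria2 (0.177), -0.09 ± 0.10 for Grin1 (0.618), -0.13 ± 0.09 for Grm5 (0.413), -0.17 ± 0.10 for Cacng8 (0.322) and -0.08 ± 0.07 for Dlg4 (0.500). Grid1 had -0.19 ± 0.07 (0.132). DESeq2 called 3 members in this comparison (Grin2a and Grin2b lower, Cnih3 higher), against 3.48% of all genes. It gave no adjusted p here for Grik1, Grin2d, Grm4, Grm8, Cacng2 and Cacng4, so these could not be called. The share is over all 19423 genes, those without an adjusted p included. Without library 23 of APP NLGF P16 KO, edgeR called 9 members (8 lower, Cnih3 higher), but then also 21.5% of all genes.

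Averaging both comparisons gave the P16 KO effect over both App backgrounds, and here 4 of 33 members passed (12.1%, against 13.0% of all genes tested). Of these, 3 fell (Grin2b, Grid1 and Shisa6, against 5.32% of all genes called lower) and 1 rose (Cnih3, against 7.66% called higher). The share of members called was near that of genes in general. At an unadjusted p under 0.05 stood 12 members, against 31.0% of all genes. Estimates were below 0 for 29 of 33 members, with a median of -0.086 beside 0.0038 over all genes. By class, all 4 AMPA, all 5 kainate, all 6 NMDA and all 3 Shisa genes had estimates below 0, as did 5 of 6 metabotropic and 4 of 5 TARP genes. Both cornichons lay above 0. With length and GC trends removed, the genes below 0 were 3 of 4 AMPA, 4 of 5 kainate, 4 of 6 NMDA, 2 of 3 Shisa, 3 of 6 metabotropic and 4 of 5 TARP genes, so a uniform direction within the AMPA, kainate, NMDA and Shisa classes was not seen in that fit. Among the members that passed, the sizes were modest, at most 0.40 on the log2 scale.

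**Figure D2:**
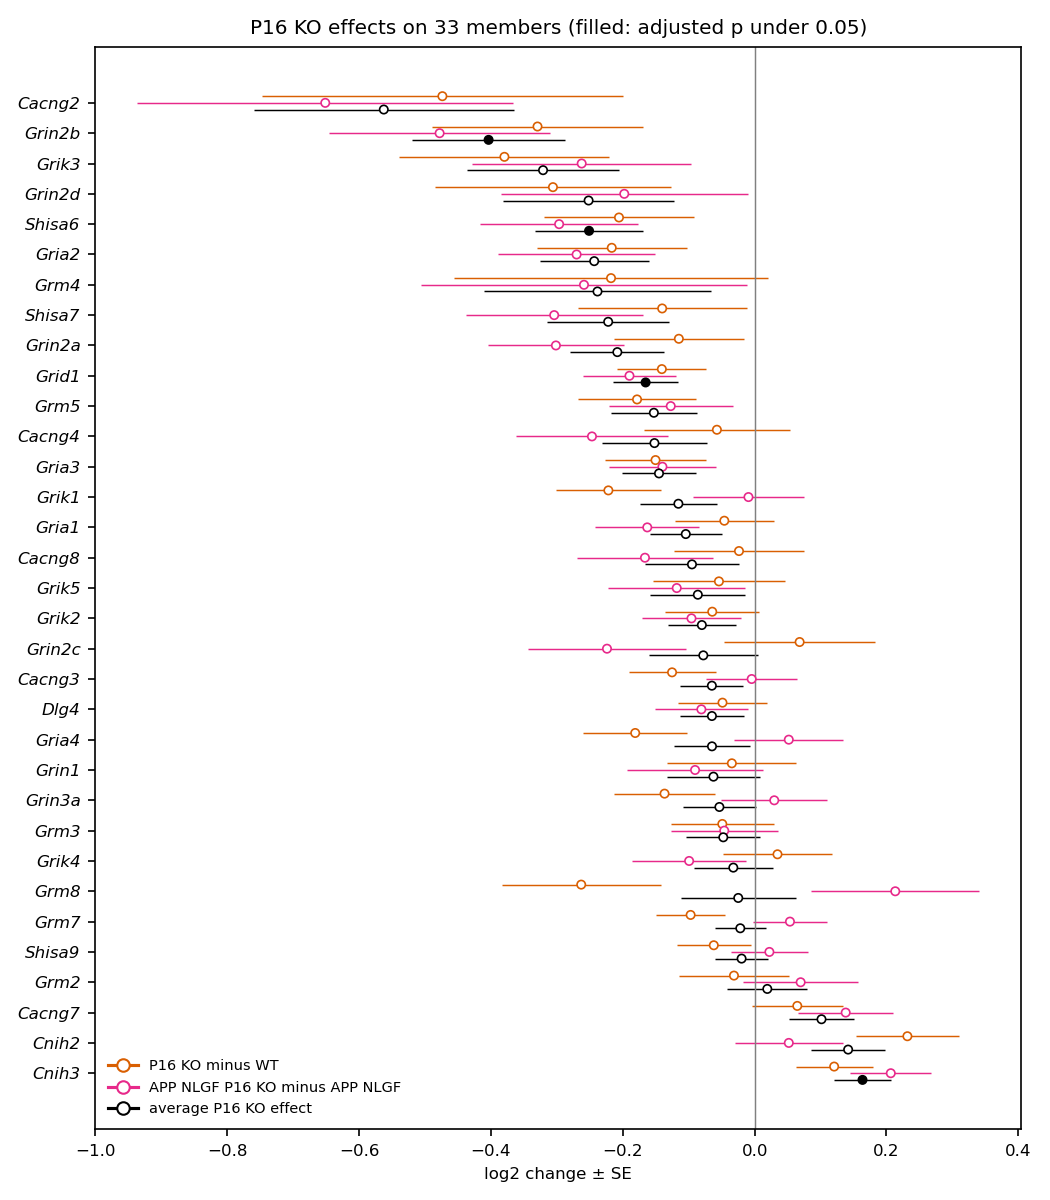
Log2 change (x axis, bars are SE) of 33 members for P16 KO minus WT, APP NLGF P16 KO minus APP NLGF and their average, sorted by the average. Filled points have an adjusted p under 0.05: Grin2b (-0.40), Shisa6 (-0.25), Grid1 (-0.17) and Cnih3 (0.16), all in the average.

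Grin2b (ENSMUSG00000030209, GRCm38 chromosome 6, 135713233 to 136173511, minus strand) had 413, 472 and 579 CPM as lowest, median and highest value in P16 KO, and 439, 609 and 749 CPM in WT. With the knock-in values above, both backgrounds showed a lower mean under P16 KO, at 484 ± 56.7 CPM in P16 KO against 608 ± 104 CPM in WT, and at 410.2 ± 114 CPM in APP NLGF P16 KO against 571 ± 89.4 CPM in APP NLGF. The groups overlapped in both. The average log2 change was -0.40 ± 0.12, with an edgeR adjusted p of 0.0297. The call was lost without WT 5, P16 KO 9, APP NLGF 16 or APP NLGF 17 (adjusted p up to 0.0697). The predicted genes Gm14329, Gm22892 and Gm26653 overlap its span.

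Grid1 encodes a delta receptor, which binds cerebellins across the synaptic cleft (ENSMUSG00000041078, GRCm38 chromosome 14, 34820108 to 35583379, plus strand). It had 61.6, 64.3 and 67.0 CPM in P16 KO against 60.5, 71.7 and 78.6 CPM in WT. It had 55.0, 58.4 and 72.5 CPM in APP NLGF P16 KO against 70.6, 67.6, 69.8, 71.7 and 73.6 CPM in APP NLGF. In APP NLGF P16 KO, libraries 22 and 23 lay among the APP NLGF values, and libraries 18 to 21 lay below all of them. Its average log2 change was -0.17 ± 0.05 (edgeR adjusted p = 0.0305). It passed in 13 of 23 fits that left out 1 library, and was lost without WT 2, 4 or 5, P16 KO 9 or 12, APP NLGF 16 or 17, or APP NLGF P16 KO 18, 20 or 21 (adjusted p up to 0.0623).

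Shisa6, an auxiliary subunit that keeps AMPA receptors at the synapse, lies on GRCm38 chromosome 11 (ENSMUSG00000053930, 66211725 to 66525964, minus strand). It had 117, 128 and 133 CPM in P16 KO against 97.4, 150.5 and 173 CPM in WT, where library 1 was lowest. It had 87.0, 112 and 143 CPM in APP NLGF P16 KO against 129, 134, 136, 162 and 145 CPM in APP NLGF. The groups overlapped in both backgrounds. The average log2 change was -0.25 ± 0.08 (edgeR adjusted p = 0.0465), close to the threshold. It passed in 5 of 23 fits without 1 library, with adjusted p-values up to 0.102 in the others.

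Cnih3 (ENSMUSG00000026514, GRCm38 chromosome 1, 181352628 to 181460641, plus strand) was the member called higher. It had 69.9, 80.5 and 87.4 CPM in P16 KO against 68.5, 71.6 and 85.0 CPM in WT. The WT value of 85.0 CPM, in library 1, stood above the other WT values, which ended at 74.0 CPM. The average log2 change was 0.16 ± 0.04 (edgeR adjusted p = 0.0196). It passed in 22 of 23 fits without 1 library and was lost without APP NLGF 16 (adjusted p = 0.0558). The plot of CPM by genotype shows these genes with 4 others.

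**Figure D3:**
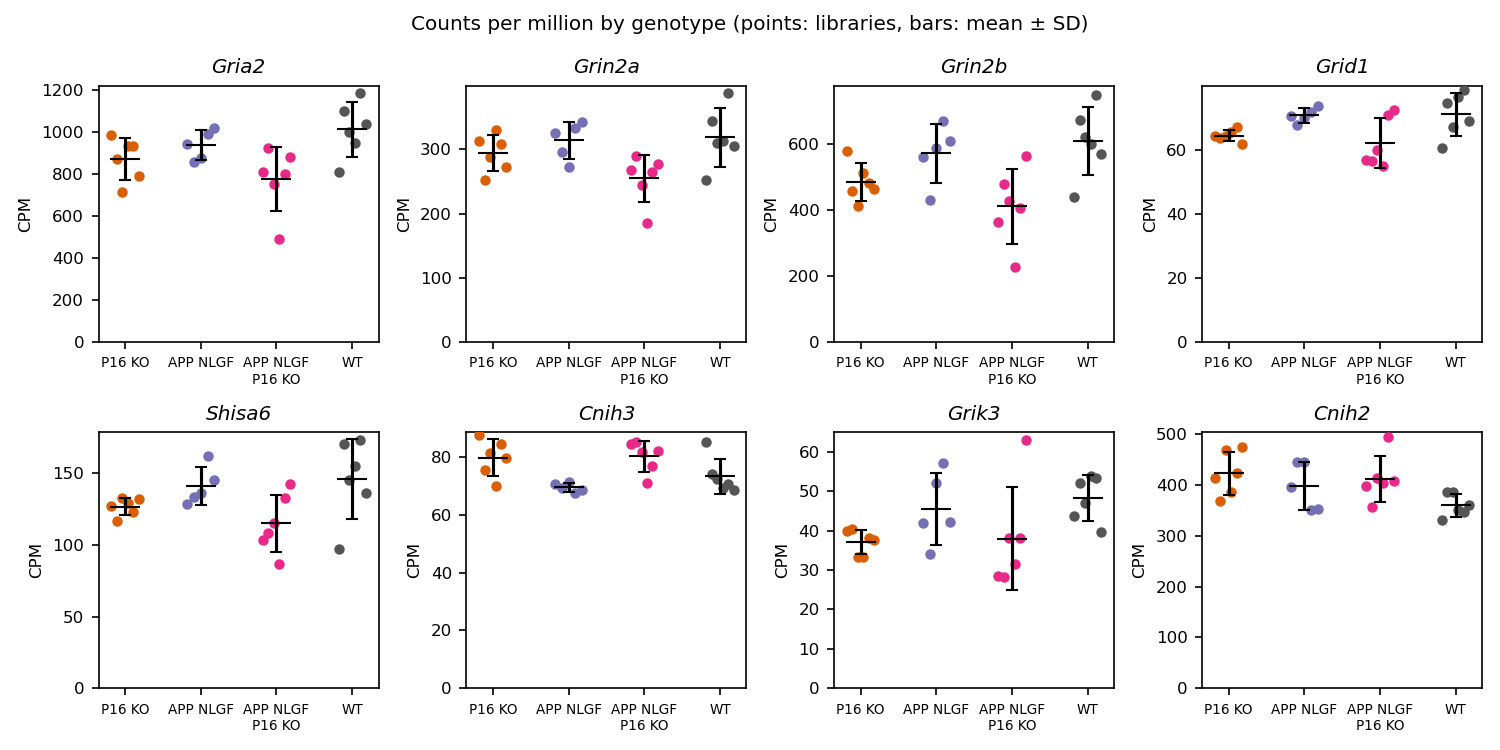
CPM (y axis, from 0) of 8 members in each library by genotype, with the mean and SD. Cnih3 is higher in P16 KO (79.7 CPM on average) and APP NLGF P16 KO (80.2) than in APP NLGF (69.5) and WT (73.3), and Grin2b is lower in P16 KO (484) and APP NLGF P16 KO (410.2) than in APP NLGF (571) and WT (608), with wide spread.

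Several other members lay just beyond the threshold in the average P16 KO effect. Gria2 had 715, 902 and 988 CPM in P16 KO against 809, 1019.8 and 1186 CPM in WT, and 493, 807 and 926 CPM in APP NLGF P16 KO against 944, 857, 879, 989.9 and 1022 CPM in APP NLGF. Its groups overlapped, and its average log2 change was -0.24 ± 0.08 (edgeR adjusted p = 0.0522). Grin2a had an average log2 change of -0.21 ± 0.07 (edgeR adjusted p = 0.0534). Cacng2, the gene of the TARP stargazin, had the lowest estimate of all members, -0.56 ± 0.20 (edgeR adjusted p = 0.0623). It was scarce and uneven, at 9.20 ± 0.971 CPM in P16 KO and 12.8 ± 6.56 CPM in WT, and at 8.97 ± 4.22 CPM in APP NLGF P16 KO and 14.1 ± 2.25 CPM in APP NLGF. Grik3 stood at -0.32 ± 0.12 (edgeR adjusted p = 0.0658). DESeq2 called Gria2, Grin2a, Cacng2 and Grik3 besides the 4 named above, and 17.4% of all genes. Gria2 and Grin2a were called too with RLE size factors (12.7% of all genes) and with a filter of 15 reads in 3 libraries (13.5%).

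The remaining members chosen for full statistics did not pass in the average P16 KO effect. Gria1 had -0.10 ± 0.05 (edgeR adjusted p = 0.193) and Grin1 -0.06 ± 0.07 (adjusted p = 0.588). Grm5, the postsynaptic metabotropic receptor gene linked to calcium release, had -0.15 ± 0.06 (adjusted p = 0.110). Cacng8, the TARP typical of hippocampus, averaged 82.2 ± 8.79 CPM in P16 KO against 83.6 ± 11.0 CPM in WT, and 74.1 ± 11.1 CPM in APP NLGF P16 KO against 83.1 ± 9.11 CPM in APP NLGF (average log2 -0.10 ± 0.07, adjusted p = 0.382). Dlg4 had -0.06 ± 0.05 (adjusted p = 0.383).

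The number of members called in the average P16 KO effect rested on single libraries. It was 12 without APP NLGF P16 KO 23 (26.5% of all genes called), 8 without WT 1 (18.9%) and 7 without APP NLGF 14 (14.5%). It was 2 without WT 2, WT 4, P16 KO 12 or APP NLGF P16 KO 18, 20 or 21 (7.29% to 9.16%). It was 1 without WT 5, P16 KO 9 or APP NLGF 17 (6.10% to 6.96%), and 0 without APP NLGF 16 (3.88%). The count over all genes moved as well, between 762 without APP NLGF 16 and 5117 without APP NLGF P16 KO 23, beside 2522 with every library.

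Gene length moved with these estimates. All genes were split into 3 groups of about equal number by exon length. Among the longest (5168 bases and more), 143 were called higher and 762 lower in the average P16 KO effect. Among the shortest (up to 2658 bases) 791 were called higher and 103 lower. Of the 33 members, 24 lay in the longest group, where their median was -0.13 beside -0.060 for all its genes. The slope of a library's log2 level on length, per doubling of length, had a median of -0.0090 in P16 KO, 0.0079 in APP NLGF, -0.033 in APP NLGF P16 KO and 0.034 in WT. Long genes were thus relatively lower in both P16 KO groups than in the group each was compared with.

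With per-library trends on length and GC content removed, 21 of 33 members had an estimate below 0, with a median of -0.039 beside 0.036 over all genes. The sign of 8 estimates changed (Gria4, Grik2, Grin1, Grin3a, Grm7, Grm8, Shisa9 and Dlg4), none of them past the threshold in either fit. Again 4 members passed, against 18.8% of all genes, but of the 4 named above only Cnih3 did (log2 0.14, edgeR adjusted p = 0.0498). Grin2b then had -0.17 (adjusted p = 0.0613), Grid1 -0.12 (0.0535) and Shisa6 -0.19 (0.0546). The others that passed were Grik3 (-0.26, adjusted p = 0.0352), Grin2d (-0.25, 0.0361) and Shisa7 (-0.20, 0.0476). Of all members Grin2b, Gria2 and Grin2a moved most. Gria2 stood at -0.05 (adjusted p = 0.530) and Grin2a at -0.03 (0.757), as the plot of effects by exon length shows. Whether such trends are technical was not tested.

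**Figure D4:**
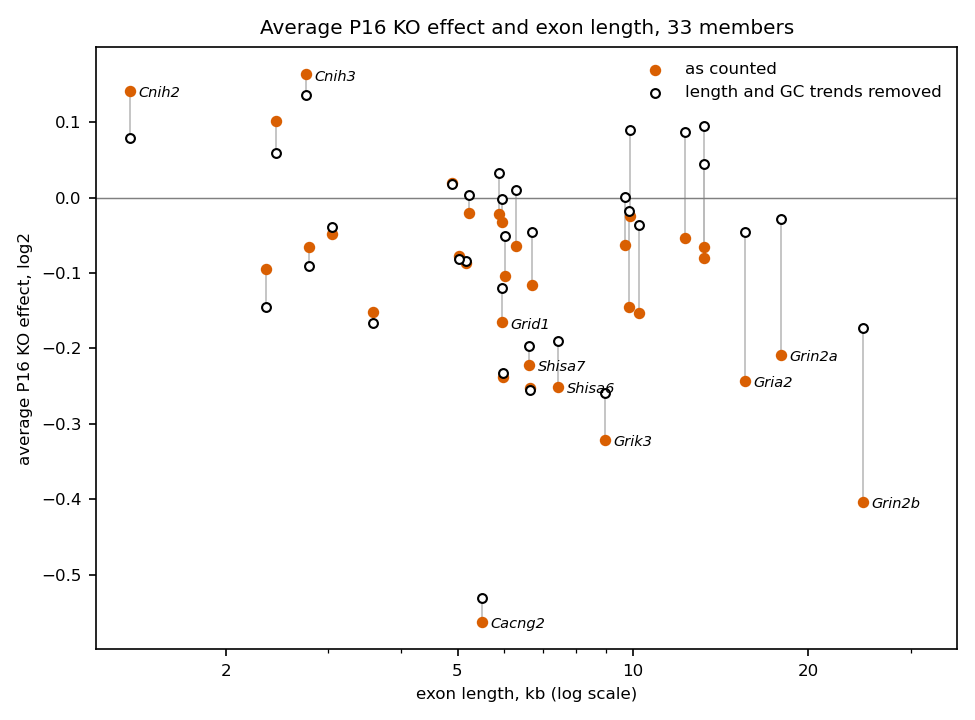
Average P16 KO effect (log2, y axis) of 33 members by exon length (kb, log scale), as counted (filled) and with length and GC trends removed (open), joined by lines. The long genes Grin2b, Grin2a and Gria2 move toward 0 (Grin2b to -0.17), and Cnih3 stays at 0.14.

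Markers of other cell types were summed beside these results. The 5 astrocyte markers summed to 1587 to 1788 CPM in P16 KO, 1719 to 1949 in APP NLGF, 1725 to 2178 in APP NLGF P16 KO and 1561 to 1718 in WT, and 1 of 5 was called higher in the average P16 KO effect. The 5 excitatory neuron markers summed to 6549 to 7587 CPM in P16 KO, 6660 to 7376 in APP NLGF, 6022 to 7449 in APP NLGF P16 KO and 6353 to 7280 in WT, and 1 of 5, Slc17a7, was called higher. In the average P16 KO effect 4 of these 5 had an estimate below 0, with a median log2 change of -0.065. Calls were also made there among shared neuron markers (1 higher and 1 lower of 6), CA1 markers (1 of 5 higher), microglia markers (1 of 5 higher) and endothelium markers (1 of 4 lower). Of all genes 7.66% were called higher and 5.32% lower. The part of these cell types in the members' estimates was not tested.

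The knock-in itself was compared in both P16 backgrounds. In APP NLGF against WT no member passed (0 of 33, against 0.319% of all genes, 0.304% higher and 0.0154% lower), nor did any by DESeq2. There 1 had an unadjusted p under 0.05, against 8.54% of all genes. The median was -0.026 beside -0.0010 over all genes, and no groups separated, against 1.88% of all genes. Grm8, a presynaptic group III metabotropic receptor gene, had the smallest p. It had 7.90, 6.60, 6.73, 7.97 and 9.19 CPM in APP NLGF, against 7.98, 9.52 and 10.2 CPM as lowest, median and highest value in WT, with overlap in 1 APP NLGF library (log2 -0.29 ± 0.13, edgeR adjusted p = 0.538). Grm7, its relative at active zones, averaged 59.8 ± 4.02 CPM in APP NLGF and 64.7 ± 3.76 CPM in WT (log2 -0.11 ± 0.06, edgeR adjusted p = 0.585). The core members had estimates between -0.14 ± 0.09 (Grm5, adjusted p = 0.746) and 0.02 ± 0.10 (Grin1, adjusted p = 0.990), with Gria2 at -0.11 ± 0.12 (0.867), Grin2b at -0.09 ± 0.17 (0.942), Gria1 at -0.05 ± 0.08 (0.918), and Grin2a, Dlg4 and Cacng8 at -0.02 ± 0.10, -0.02 ± 0.07 and -0.01 ± 0.10 (adjusted p = 0.986, 0.981 and 0.998).

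In APP NLGF P16 KO against P16 KO no member passed either (0 of 33, against 0.247% of all genes, 0.221% higher and 0.0257% lower, and 0 by DESeq2), with 3 unadjusted p under 0.05, against 7.89% of all genes. The groups separated in no member, against 0.463% of all genes. Gria1 had 758, 994 and 1062 CPM in APP NLGF P16 KO and 982, 1078 and 1174 CPM in P16 KO, with overlap (log2 -0.17 ± 0.08, edgeR adjusted p = 0.581). Gria4, a subunit prominent in interneurons, had 81.3 to 103 CPM (mean 90.3 ± 7.83) in APP NLGF P16 KO and 70.7 to 93.0 CPM (mean 80.1 ± 7.90) in P16 KO, again with overlap (log2 0.17 ± 0.08, edgeR adjusted p = 0.601). Of the other core members, Grin2b had -0.24 ± 0.16 (edgeR adjusted p = 0.758), Grin2a -0.21 ± 0.10 (0.626), Gria2 -0.16 ± 0.11 (0.759), Cacng8 -0.15 ± 0.10 (0.752), Grm5 -0.09 ± 0.09 (0.845), Dlg4 -0.05 ± 0.07 (0.884) and Grin1 -0.04 ± 0.10 (0.945).

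Averaged over both P16 backgrounds, the knock-in left 0 of 33 members past the threshold, against 0.793% of all genes (0.649% higher), and 2 at an unadjusted p under 0.05, against 10.4%. These were Grm4, a group III receptor gene (log2 0.37 ± 0.17, edgeR adjusted p = 0.461), and Gria1 (-0.11 ± 0.05, adjusted p = 0.478). Grm4 was highest in library 14 of APP NLGF, at 27.2 CPM where the other 4 libraries had 8.85 to 13.7 CPM. DESeq2 called 0 members in this comparison too. In the same libraries the 5 microglia markers summed to 355 to 417 CPM in APP NLGF and 379.9 to 422 in APP NLGF P16 KO, against 316 to 343 in P16 KO and 297 to 333 in WT, and their part in these estimates was not tested.

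The interaction asked whether the effect of P16 KO differed between App backgrounds. No gene passed by edgeR (0% of all genes, 1021 of them at an unadjusted p under 0.05), and DESeq2 called 1 gene, not a member. In edgeR 1 member had an unadjusted p under 0.05, against 5.26% of all genes. That member was Grm8, for which the P16 KO estimate was 0.21 ± 0.13 in the knock-in background and -0.26 ± 0.12 in the wild-type one, a difference of 0.48 ± 0.18 (edgeR adjusted p = 0.897). Gria4 came second (0.23 ± 0.11, adjusted p = 0.897). The test for any difference among the 4 genotypes passed no member, against 3.53% of all genes, with Cnih3 closest (adjusted p = 0.0793) and Grin2b next (0.0956). It called 7 members without APP NLGF P16 KO 23, where it called 20.5% of all genes, and 4 without WT 1, where it called 7.30%.

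Many members reached their extremes in the same few libraries. Library 5 of WT held the highest value of 12 members and library 23 of APP NLGF P16 KO that of 8. The lowest values gathered in APP NLGF P16 KO, in library 19 for 10 members and in library 21 for 9. Ordered by GC content, the heat map of members shows that libraries 21 and 19 were low for many members at opposite ends. Some AT-rich members were not low in library 21. Gria4, Grm8 and Grm3 had 93.2, 9.10 and 51.3 CPM there, against means of 87.1, 8.46 and 46.7 CPM over the 23 libraries. Library 21 was lowest for the AT-rich Gria2 (493 CPM) and Grm5 (213 CPM), and library 19 for the GC-rich Grin1 (310.2 CPM). The slope over all genes per 10 points of GC was 0.161 log2 units in library 21 and -0.129 in library 19. Library 21 also had the lowest slope on length of all libraries (-0.068 per doubling), against -0.011 in library 19. Library 23 (0.140 per 10 points of GC) and library 6 of WT (-0.126) held the lowest value of 0 members. The part of GC content and length in these low values was not tested.

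**Figure D5:**
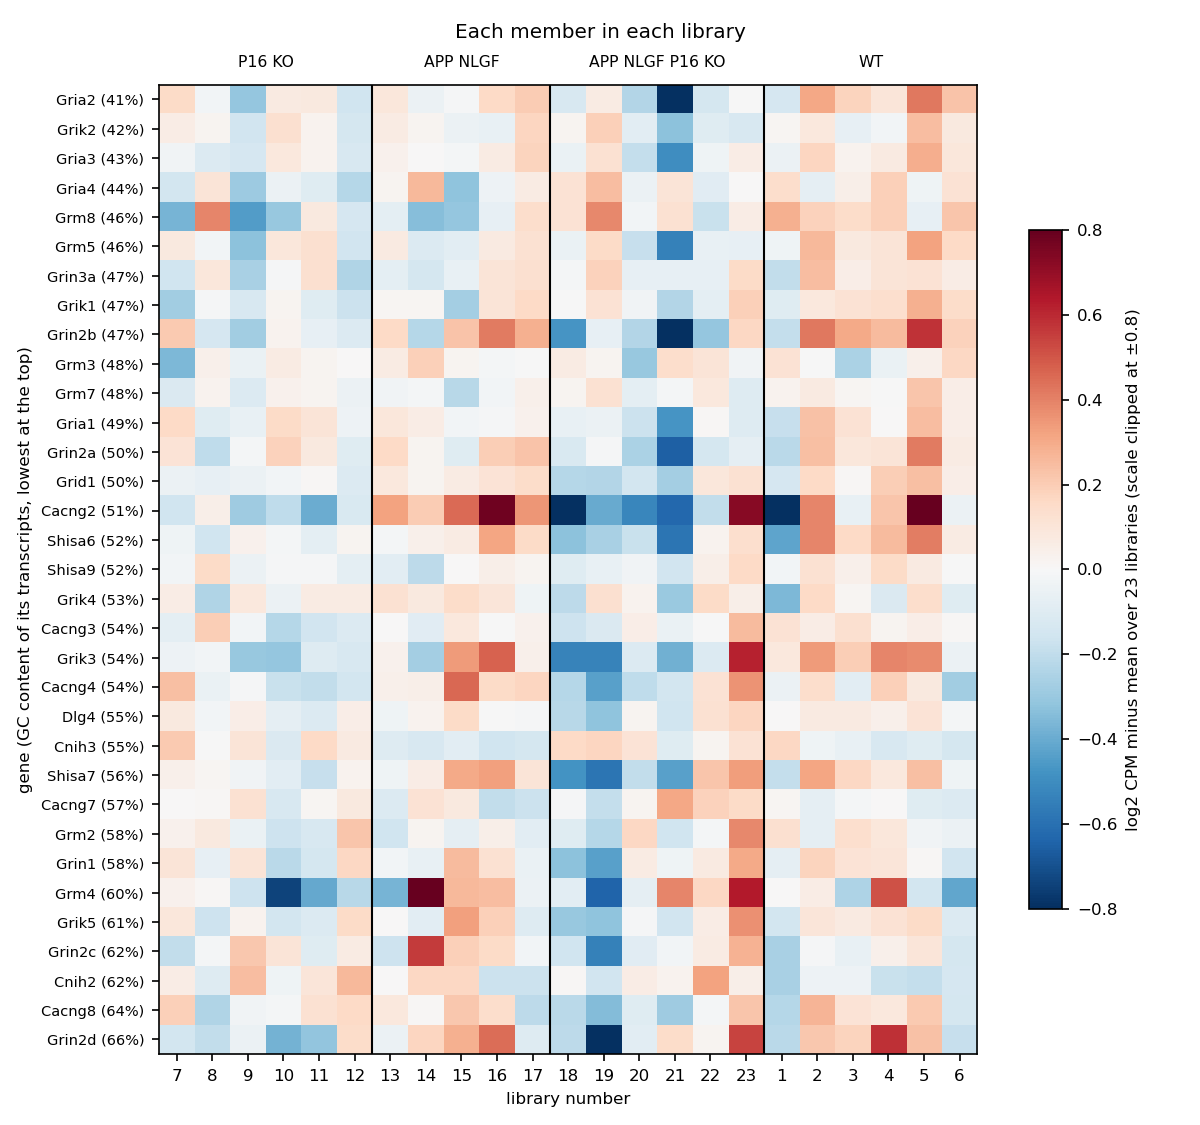
Log2 CPM of 33 members (rows, ordered by GC content of their transcripts) in 23 libraries (columns, by genotype) minus the mean over libraries, with colours clipped at 0.8. Library 21 is low for many of the upper, AT-rich rows, though not for Gria4, Grm8 or Grm3, and library 19 for many of the lower, GC-rich rows.

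Among the 528 pairs of members, 8 had a Pearson r above 0.9 across the 23 libraries on the log2 scale. At a Benjamini-Hochberg adjusted p of r under 0.05 by permutation test stood 154 positive and 22 negative pairs. Small p-values were thus common among members, and pairs of other genes were not examined. Gria2 and Grm5 were closest (r = 0.956, Spearman rho = 0.880, permutation test p = 1e-05 for each, the smallest that 100000 permutations can give, Benjamini-Hochberg adjusted p = 0.00016 for r and 0.00025 for rho over the 528 pairs). With the genotype means removed r was 0.953, and without the 2 libraries farthest from the median of Gria2 it was 0.923. Grik5, a high-affinity kainate subunit gene, and Grin1 followed each other as well (r = 0.922, rho = 0.908, 0.919 within genotypes, 0.897 without 2 libraries, adjusted p = 0.00016 and 0.00025 by the same permutation test). The most negative pair was Grik2 and Cacng7 (r = -0.80, rho = -0.76, -0.77 within genotypes, -0.74 without 2 libraries, adjusted p = 0.00016 and 0.00044). Both positive pairs joined genes of like GC content, 41.3% and 46.3% for the first and 60.8% and 58.4% for the second, while Grik2 (41.6%) and Cacng7 (57.3%) differed. All pairs share the libraries and their depth, which the permutation test does not take into account, and the part of base composition was not tested.

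Other genes of the glutamate synapse were examined in 4 lists. Of 16 genes for AMPA receptor assembly and further auxiliary proteins, 1 fell in P16 KO against WT and 0 rose, against 0.0463% of all genes lower and 0.263% higher. This was Frrs1l, which builds AMPA receptors in the endoplasmic reticulum and lies on chromosome 4, with 409 ± 51.0 CPM in P16 KO and 549.5 ± 22.1 CPM in WT (log2 -0.43 ± 0.08, edgeR adjusted p = 0.0166). In the average P16 KO effect it fell by 0.38 on the log2 scale (SE 0.06, edgeR adjusted p = 0.00112), and the median of its list was 0.044 beside 0.0038 over all genes. Frrs1l was the 1 of 16 called there, against 13.0% of all genes. Of 11 tested further receptors and partners, 0 passed in any comparison.

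Of 27 scaffold and signalling genes, 1 rose and 1 fell in the average P16 KO effect, against 7.66% of all genes called higher and 5.32% lower. Grip1, which anchors the GluA2 subunit, had an average log2 change of -0.34 ± 0.11 (edgeR adjusted p = 0.0473), and Lrrtm1, a synaptic adhesion gene, 0.11 ± 0.04 (adjusted p = 0.0495). Homer1, which ties group I metabotropic receptors to the scaffold, fell in the average APP NLGF effect (log2 -0.27 ± 0.06, edgeR adjusted p = 0.0101). It was the 1 of 27 called there, against 0.793% of all genes (0.144% lower). It averaged 131.5 ± 7.45 CPM in APP NLGF against 162 ± 13.8 CPM in WT, and 136 ± 10.1 CPM in APP NLGF P16 KO against 161 ± 23.3 CPM in P16 KO. Of 10 transport and release genes, the vesicular transporter gene Slc17a7 rose (0.15 ± 0.04, edgeR adjusted p = 0.0308) and the glial uptake transporter gene Slc1a2 fell (-0.13 ± 0.04, adjusted p = 0.0343) in the average P16 KO effect. These calls stand beside the same 7.66% and 5.32% of all genes.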

How the data were processed

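The deposited table holds raw counts of reads per gene, whole numbers that the authors did not normalise. Per the series' design text and the submitters' processing notes, reads were trimmed with cutadapt 4.2, Bowtie2 2.3.5 served to discard reads from ribosomal RNA, and uniquely aligned reads (STAR 2.7.10b) lying in 1 gene were counted, from a stranded library kit. The notes name the builds GRCm38 and mm39. The table's positions equalled those of GENCODE M21 (GRCm38) for 36795 of 37060 genes found there, so coordinates are given on GRCm38. All 23 columns were mapped to samples by the library names in the labels.

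Tests used edgeR 4.0.16 in R 4.3.3 (filterByExpr with a minimum of 10, TMM, robust quasi-likelihood F test, 1 model for 4 genotypes), two-sided, with Benjamini-Hochberg adjustment over 19423 genes. The average P16 KO effect is the mean of P16 KO minus WT and APP NLGF P16 KO minus APP NLGF. Exon lengths and GC content came from GENCODE M21, with length as the union of all annotated exons of a gene. Animals are the replicates, and each test set a group difference against the spread between libraries. With 1 library per animal, differences between mice and between preparations cannot be told apart in that spread.

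Members and lists were chosen with earlier results of these data known. Full statistics went to members past 0.05, the 2 with the smallest p in each contrast, and Gria1, Gria2, Grin1, Grin2a, Grin2b, Grm5, Cacng8 and Dlg4. Cacng2, Grik3 and others near the threshold were named after their values were seen. Alternatives were DESeq2 1.42.0, RLE size factors, 2 other count filters, a fit without robust dispersion, the compared groups alone, 1 surrogate variable (sva 3.50.0), length and GC trends removed (mgcv 1.9.3), thresholds of 0.01 and 0.1, and omission of each library or of the outlying one. The procedure was tested on simulated data.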

Additional observations from a re-analysis of the deposited data

Results flagged for a closer look

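Of 132 sets of values, 1 for each of 33 members in each genotype, 9 held a library far from the rest of its group, where chance gives about 1 in 20. Library 23 of APP NLGF P16 KO was high for Grik3, at 62.98 CPM where the other 5 had 28.31 to 38.12, and for Cacng2, at 17.25 CPM where the others had 5.599 to 9.11. Its omission raised the number of members called in the average P16 KO effect to 12, and the share of all genes called to 26.5%.

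In P16 KO, Grm3 was low in library 7, at 36.23 CPM where the others had 44.89 to 48.61, and Shisa9 was high in library 8, at 71.82 CPM where the others had 61 to 64.12. In APP NLGF, Grm4 was high in library 14, at 27.2 CPM where the others had 8.854 to 13.68. Library 15 of the same group was low for Grm7, at 52.89 CPM where the others had 60.62 to 63.51, and high for Cacng4, at 26.27 CPM where the others had 19.69 to 21.55. In WT, Grm7 was high in library 5, at 71.99 CPM where the others had 61.7 to 64.9, and Cnih3 was high in library 1, at 85.04 CPM where the others had 68.55 to 73.99. What sets these libraries apart was not tested.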

How the results depend on the processing

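The number of members called in the average P16 KO effect was 4 (13.0% of all genes called). It was 8 with DESeq2 (17.4%), 8 with 1 surrogate variable (15.9%) and 2 with no count filter (3.67%). It was 6 with RLE size factors (12.7%), 6 with a filter of 15 reads in 3 libraries (13.5%) and 6 without robust dispersion (13.7%). It was 2 without the outlying library (7.29%), 0 at a threshold of 0.01 (0.86%) and 10 at 0.1 (22.8%). Leaving out 1 library in turn gave 0 to 12 (3.88% to 26.5%). In APP NLGF P16 KO minus APP NLGF the number was 0 (0.0309%), against 3 with DESeq2 (3.48%) and 0 to 9 without 1 library (21.5% at 9). In P16 KO minus WT it was 0 (0.309%), against 1 in a fit of the compared groups alone (1.95%). In the test of any difference it was 0 (3.53%), against 3 with DESeq2 (11.6%), 2 at a threshold of 0.1 (10.7%) and 0 to 7 without 1 library (20.5% at 7). The threshold sets the count directly; for the other settings the cause was not tested. In P16 KO minus WT the count over all genes was 60, and 469 with DESeq2; in the average P16 KO effect it was 2522, and 3384 with DESeq2, 3642 with trends removed, 1364 with no count filter and 1410 without the outlying library. DESeq2 also called 153 genes in APP NLGF minus WT where edgeR called 62, 676 against 6 in APP NLGF P16 KO minus APP NLGF, 101 against 48 in APP NLGF P16 KO minus P16 KO, 285 against 154 in the average APP NLGF effect and 2246 against 686 in the test of any difference. Grin3b had too few reads to compare. No paired analysis was possible because the library numbers are not shared between groups.

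Among members given full statistics, signs changed under the alternatives run only for estimates that passed in neither fit. With length and GC trends removed, 4 of 33 members changed sign in P16 KO minus WT, 4 in APP NLGF P16 KO minus APP NLGF and 8 in the average P16 KO effect. Of those given full statistics, P16 KO minus WT became 0.012 for Gria1, 0.030 for Grin2a and 0.013 for Dlg4. APP NLGF P16 KO minus APP NLGF became 0.016 for Grin1 and 0.076 for Dlg4, and the average P16 KO effect became 0.00060 for Grin1 and 0.044 for Dlg4. APP NLGF minus WT became -0.045 for Grin1, and APP NLGF P16 KO minus P16 KO became 0.0020 for Dlg4. Leaving out 1 library moved estimates across 0 for P16 KO minus WT in Grin1 (-0.073 to 0.0040) and Cacng8 (-0.075 to 0.026). It did so for APP NLGF minus WT in Grin1 (-0.035 to 0.050), Grin2a (-0.082 to 0.043), Grin2b (-0.17 to 0.00076), Cacng8 (-0.058 to 0.053) and Dlg4 (-0.052 to 0.0035). It did so too for Grin1 in APP NLGF P16 KO minus P16 KO (-0.12 to 0.031) and in the average APP NLGF effect (-0.048 to 0.025).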
